A study of Mus musculus with 4 samples.

Results

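XBP1s peaks whose nearest gene is noncoding were taken from 1 combined peak list of mouse natural killer (NK) cells. Of 4890 peaks, 364 (7.44%, exact 95% interval 6.72 to 8.22) carry a gene type other than protein-coding in the deposited annotation, and they are named for 290 genes. The other peaks are named for a protein-coding gene (4524) or have no gene type (2). A peak was called near when its centre lay within 5000 bp of the transcription start site (TSS) of the gene it is named for, and distal otherwise. There are 199 near peaks at 183 genes and 165 distal peaks at 129 genes, with 22 genes in both sets. The peaks were measured by chromatin immunoprecipitation and sequencing of NK cells isolated from mouse spleen. The labels give the strain as C57BL/6, and the design text names Il15Tg Xbp1f/f mice, which carry an Il15 transgene and loxP-flanked (floxed) Xbp1. The labels name no Cre. The XBP1s immunoprecipitations (2 libraries) and the inputs (2 libraries) came from cells given IL-15 at 50 ng/ml for 1 h, so no untreated cells are compared. The peak list has no value for any library. There is therefore no replicate error, no known depth and no test over samples for any number below. Shares carry exact 95% intervals (Clopper-Pearson), which cover counting error only.

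XBP1 is a basic leucine zipper factor of the unfolded protein response. When unfolded protein builds up in the endoplasmic reticulum (ER), the sensor IRE1 cuts Xbp1 mRNA, and the spliced form encodes XBP1s, which activates genes of protein folding, ER-associated degradation and secretion. IL-15 is the cytokine that keeps NK cells alive. Noncoding genes make several kinds of RNA. Long noncoding RNAs (lncRNAs) include nuclear scaffolds and antisense transcripts. MicroRNAs (miRNAs) are cut from hairpins within longer transcripts and repress mRNAs through a seed of bases 2 to 8. Small nucleolar RNAs (snoRNAs) are often cut from introns of host genes and guide modification of ribosomal RNA.

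The DNA letters of the peaks were not read, since no genome sequence was used. RefSeq promoter windows (GRCm38.p6, 250 bp before to 50 bp after a start, 300 bp in all) were found for 166 of the 290 genes, and in 96 genes a near peak overlapped such a window. Of those windows, 4 hold the letters TGACGTGG, the core of the unfolded protein response element (UPRE). They are shown because they pair a peak with the motif named for this response. 4933421O10Rik (chr4:33031274-33031573, minus strand) has a divergent start 57 bp from that of Ube2j1, an ER-anchored ubiquitin-conjugating enzyme of ER-associated degradation. Kcnq1ot1 (chr7:143296498-143296797, minus strand) makes an imprinted antisense lncRNA that silences neighbouring genes. Gm19897 (chr7:28781465-28781764, minus strand) and 2900076A07Rik (chr7:81523300-81523599, plus strand) are lncRNA genes. Snhg15 (chr11:6528711-6529010, minus strand), a snoRNA host gene, is shown for its cyclic AMP response element (CRE, TGACGTCA) under the widest peak over a window with that motif. Sequences run 5' to 3' on the gene's strand, and capitals mark the UPRE core, or the CRE in Snhg15.
4933421O10Rik: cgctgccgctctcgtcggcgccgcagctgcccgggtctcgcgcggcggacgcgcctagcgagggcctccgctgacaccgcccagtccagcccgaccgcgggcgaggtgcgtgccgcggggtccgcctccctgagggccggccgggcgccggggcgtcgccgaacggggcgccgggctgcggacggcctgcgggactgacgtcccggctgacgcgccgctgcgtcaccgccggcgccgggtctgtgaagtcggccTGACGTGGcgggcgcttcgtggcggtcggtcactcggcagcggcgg
Kcnq1ot1: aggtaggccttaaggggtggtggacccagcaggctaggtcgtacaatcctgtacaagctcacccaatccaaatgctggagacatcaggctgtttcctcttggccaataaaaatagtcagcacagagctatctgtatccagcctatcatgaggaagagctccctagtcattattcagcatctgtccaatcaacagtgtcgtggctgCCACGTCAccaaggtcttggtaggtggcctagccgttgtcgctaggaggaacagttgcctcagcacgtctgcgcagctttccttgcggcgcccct
Gm19897: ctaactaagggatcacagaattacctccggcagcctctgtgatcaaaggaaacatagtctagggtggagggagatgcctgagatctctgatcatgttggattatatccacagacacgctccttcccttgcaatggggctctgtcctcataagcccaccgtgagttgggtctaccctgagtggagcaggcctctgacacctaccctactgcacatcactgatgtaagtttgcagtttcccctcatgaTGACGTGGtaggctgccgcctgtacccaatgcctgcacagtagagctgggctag
2900076A07Rik: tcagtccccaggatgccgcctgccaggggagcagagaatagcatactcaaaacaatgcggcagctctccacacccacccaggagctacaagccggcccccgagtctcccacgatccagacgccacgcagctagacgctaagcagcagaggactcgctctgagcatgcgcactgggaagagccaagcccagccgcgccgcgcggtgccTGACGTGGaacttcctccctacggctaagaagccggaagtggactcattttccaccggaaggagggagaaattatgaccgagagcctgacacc
Snhg15: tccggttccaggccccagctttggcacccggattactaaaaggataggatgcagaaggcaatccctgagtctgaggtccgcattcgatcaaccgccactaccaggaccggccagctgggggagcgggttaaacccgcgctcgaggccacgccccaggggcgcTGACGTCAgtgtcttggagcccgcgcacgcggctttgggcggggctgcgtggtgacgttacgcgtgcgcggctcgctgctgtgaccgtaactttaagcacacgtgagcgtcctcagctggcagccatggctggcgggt

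All 4 UPRE cores and the Snhg15 CRE lie inside the peak of their gene. The core starts 4 bp after the start of 4933421O10Rik, under a 730 bp peak. That peak also holds an end of Ube2j1, and its deposited class names the Ube2j1 promoter. In 2900076A07Rik the core starts 43 bp before the gene's start (position -43), under a 571 bp peak. In Kcnq1ot1 it is read on the strand opposite to the gene, and its 320 bp peak covers only the downstream part of the window (chr7:143296498-143296625).

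Mature miRNA sequences, also from RefSeq, are shown for miRNAs known in lymphocytes or lying close to a peak. Capitals mark the seed.
miR-142a-5p: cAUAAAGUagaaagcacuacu
miR-142a-3p: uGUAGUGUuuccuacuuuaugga
miR-17-5p: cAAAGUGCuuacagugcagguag
miR-23a-3p: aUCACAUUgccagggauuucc
miR-21a-5p: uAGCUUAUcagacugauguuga
miR-29b-3p: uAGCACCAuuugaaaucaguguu
miR-15a-5p: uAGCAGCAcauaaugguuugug
miR-148a-3p: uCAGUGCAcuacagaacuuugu
miR-26b-5p: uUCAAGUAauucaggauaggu
miR-22-3p: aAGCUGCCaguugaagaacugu
let-7i-5p: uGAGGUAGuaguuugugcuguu
let-7a-5p: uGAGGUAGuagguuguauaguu

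Of the 64 miRNA genes with a peak, 59 are in the sequence table and 57 gave a mature sequence for use. Their 92 mature sequences hold 90 different seeds. Let-7i-5p and let-7a-5p share a seed, as do miR-7012-5p and miR-7057-5p.

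By RefSeq type, lncRNA genes account for 257 of the 364 peaks, of which 155 are near and 102 distal. The miRNA genes have 75 peaks with the opposite balance, 22 near and 53 distal. Transcribed pseudogenes have 13 near and 7 distal peaks, and snoRNA genes have 4 near and 1 distal. In 6 peaks the gene is typed as protein-coding by RefSeq, among them Mtln, which encodes a mitochondrial micropeptide. The ribosomal RNA gene Rn45s has 1 near peak of 361 bp. It is not in the RefSeq table, and because ribosomal DNA is a multicopy repeat, reads there are uncertain. Near peaks make up 54.7% of the noncoding peaks (49.4 to 59.9), against 84.1% of the protein-coding ones (83.0 to 85.2). Seen the other way, noncoding genes name 4.97% of all near peaks and 18.6% of all distal peaks.

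**Figure D1:**
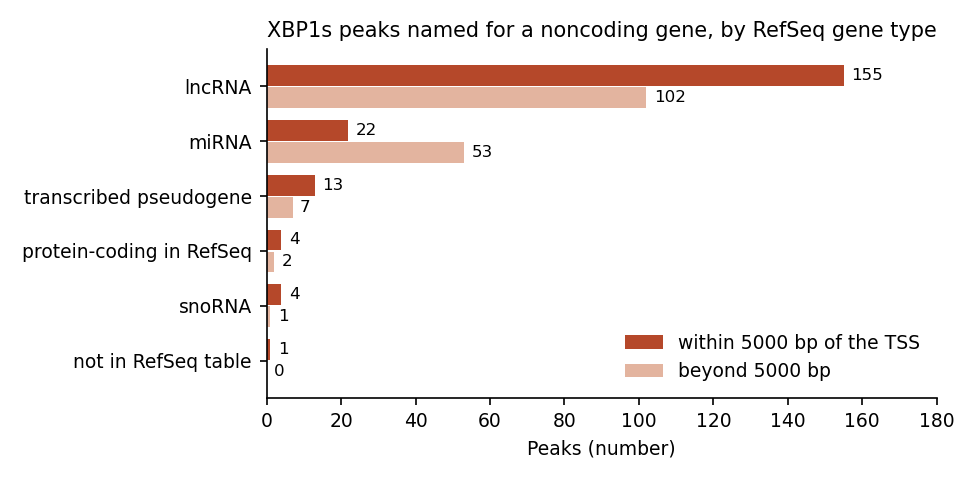
Number of peaks (x axis) named for noncoding genes of each RefSeq type (y axis), with near peaks (within 5000 bp of the TSS) above distal ones. lncRNA genes have 155 near and 102 distal peaks, whereas miRNA genes have 22 near and 53 distal.

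Near noncoding peaks had a median width of 379 bp (exact order-statistic 95% interval 334 to 418), against 395 bp (385 to 403) at protein-coding genes, so the intervals overlap. Distal noncoding peaks had a median of 334 bp (297 to 373), against 302 bp (291 to 314) for distal protein-coding ones, and these intervals overlap too. Peaks of at least 1000 bp were 9.55% of near noncoding and 7.49% of near protein-coding peaks, and 5.45% of distal noncoding and 2.09% of distal protein-coding peaks. Width is the length of the deposited interval and not a measure of signal, since the score column is 0 for every peak. The table's promoter class held 64.3% of near noncoding peaks and 64.2% of near protein-coding ones. A repeat label was given to 7 of the 199 near noncoding peaks (3.52%, 1.43 to 7.11), against 20 of 3805 near protein-coding peaks (0.526%, 0.321 to 0.811). Among distal peaks the labels stood at 6.06% for noncoding and 11.8% for protein-coding.

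**Figure D2:**
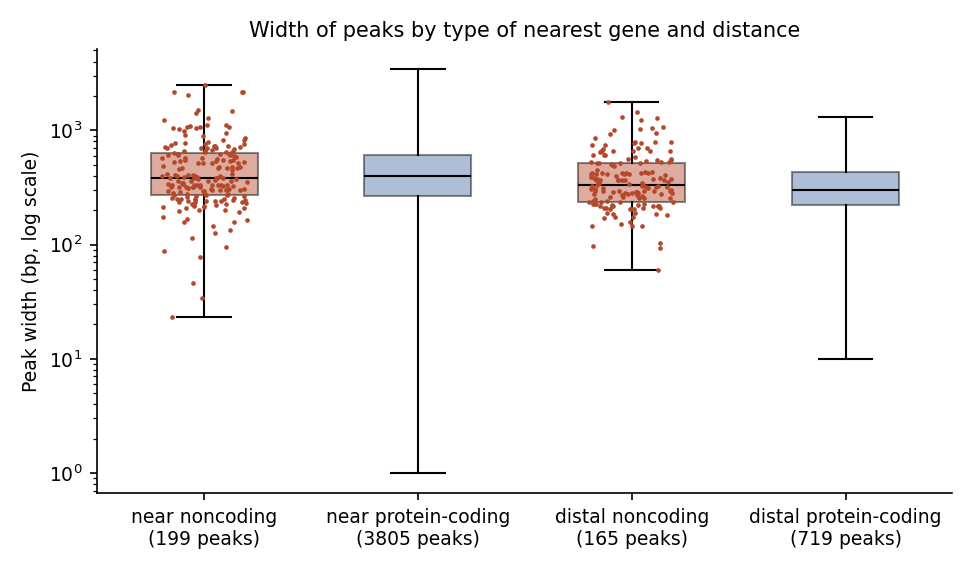
Peak width in bp on a log scale for near and distal peaks of noncoding and protein-coding genes. Boxes show quartiles and the median, whiskers the full range, and points each noncoding peak, with medians of 379 bp (noncoding) and 395 bp (protein-coding) near, and 334 bp (noncoding) and 302 bp (protein-coding) distal.

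Most noncoding genes had no peak. Among 5189 noncoding genes with a curated RefSeq transcript, 179 had a near peak (3.45%), and 285 had a peak at any distance (5.49%). The near share was 4.31% for lncRNA genes, 1.63% for miRNA genes, 2.8% for transcribed pseudogenes and 3.17% for snoRNA genes, against 15.9% for protein-coding genes. The protein-coding set, unlike the noncoding ones, was not limited to genes with a curated transcript. The table names 1 gene per peak, so a noncoding gene beside a closer start loses its peak to that neighbour. Of 4904 noncoding genes with no peak of their own, 222 (4.53%, 3.96 to 5.15) had a peak of another name centred within 1000 bp of an end.

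The widest near peak, 2508 bp, is named for the pseudogene Gm6793 and also spans an end of Hnrnpa3, which encodes an RNA-binding protein. Gt(ROSA)26Sor, the ubiquitously transcribed locus used for knock-in mice, followed with 2174 bp, and its peak holds an end of Setd5. 0610009E02Rik and 4930526I15Rik each had a peak of 2156 bp. The peak at 0610009E02Rik also holds an end of Sec16a, which organises the sites where cargo leaves the ER, and their divergent starts lie 708 bp apart. Lockd had a 2050 bp peak with no protein-coding end inside. It lies downstream of the cell-cycle inhibitor gene Cdkn1b, and in mouse erythroid cells its DNA is known to act as a Cdkn1b enhancer. The rest of the 12 widest were Morrbid (1516 bp), 5031425E22Rik (1485 bp), Mir22hg (1420 bp), Snhg15 (1279 bp), AI662270 (1232 bp, over an RMER17C retroviral repeat), 4931440J10Rik (1119 bp) and 3010003L21Rik (1109 bp).

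Among 21 snoRNA host and related genes, 8 had a near peak (38.1%, 18.1 to 61.6), against the 4.31% of all lncRNA genes. Many of these host RNAs start with a pyrimidine tract, as ribosomal protein mRNAs do. The peak widths were 1279 bp at Snhg15, 553 bp at Snhg17, 515 bp at Snhg7, 404 bp at Snhg10, 398 bp at Snhg9, 277 bp at Gas5, 210 bp at Snhg5 and 96 bp at Snhg8. They thus run from among the widest to among the narrowest of the near set. Snhg9 starts 98 bp from Rps2, a ribosomal protein gene on the other strand. Snhg10 likewise starts 339 bp from Glrx5, and Gas5 317 bp from Zbtb37. In addition, Snhg1 had a 554 bp peak centred 365.5 bp from an end of it that carries the name of Slc3a2, an amino acid transporter chain. Dancr had a 322 bp peak 270.5 bp from an end of it that carries the name of Snora26. Like the other lists below, this list was chosen with earlier results of these data known, and it was made of well-studied genes. How far its share reflects these choices was not tested.

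The snoRNA genes with peaks were Snord49b (894 bp, near), Snora65 (633 bp, near), Snord42b (330 bp, near), Snora26 (322 bp, near) and Snord104 (552 bp, distal). The centre of the Snord42b peak lay 243.5 bp from an end of the ribosomal protein gene Rpl23a. The Snora65 peak lay 3705 bp from its start and 2961 bp from an end of Rpl12, also a ribosomal protein gene.

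Of 20 long-studied nuclear and regulatory lncRNA genes, 8 had a near peak (40%, 19.1 to 63.9), against the 4.31% of all lncRNA genes. This list too was made of well-studied genes, and how far its share reflects that choice was not tested. Neat1, the scaffold of paraspeckles, had 3 near peaks, of 594, 691 and 264 bp, centred 307, 1362 and 4801 bp upstream of its start. The last of these lies 692.5 bp from an end of Frmd8 and is annotated there. Malat1, a nuclear speckle RNA from the same chromosomal neighbourhood, had a 287 bp near peak and a 216 bp distal peak. Lncpint, a p53-responsive lncRNA, had near peaks of 458 and 239 bp and a distal peak of 385 bp. The X-inactivation centre was represented by Jpx, Ftx and Xist. Jpx, an activator of Xist, had a 480 bp peak centred 43 bp after its start. Ftx, a positive regulator of Xist, had a near peak of 251 bp and a distal peak of 425 bp within its introns. Xist had a 167 bp peak 1213 bp into the gene, and the table's class there names its antisense partner Tsix. Kcnq1ot1 (320 bp) and Miat (199 bp) complete the 8. The other 12 genes, among them H19, Meg3, Norad and Hotair, had no peak named for them.

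Of 10 immune lncRNA and miRNA host genes, 9 were matched and 3 had a near peak (33.3%, 7.49 to 70.1). The share of all lncRNA genes was 4.31%, and the part of the choice of list in this gap was not tested. Morrbid restrains expression of the death factor Bim and sets the lifespan of short-lived myeloid cells in mice. Its 1516 bp peak lay in its first intron (chr2:128428057-128429572), with the next protein-coding end 162386.5 bp away. Mir22hg, the host of miR-22, had a 1420 bp peak centred 917 bp upstream of its start. Dleu2, the host of miR-15a and miR-16-1, had a 587 bp peak centred 26 bp upstream. Mir155hg had no peak named for it.

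**Figure D3:**
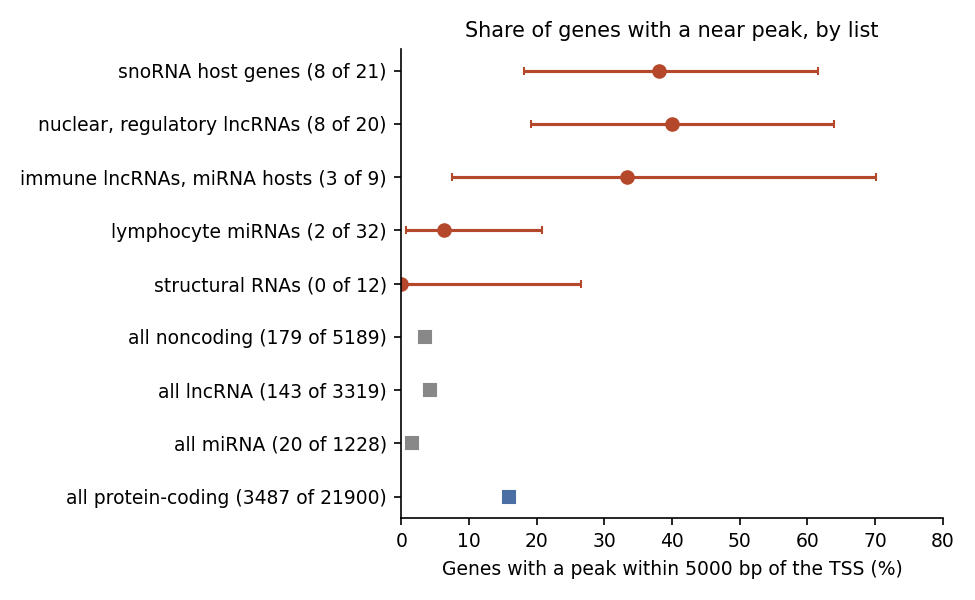
Share of genes (x axis, percent) with a peak within 5000 bp of the TSS for 5 gene lists, with exact 95% intervals as bars, above the shares of all noncoding, lncRNA, miRNA and protein-coding genes (squares). The 3 lncRNA lists stand at 33.3% to 40%, against 4.31% of all lncRNA genes. The lists were chosen with earlier results of these data known, and how far their shares reflect that choice was not tested. Only the noncoding squares are limited to genes with a curated RefSeq transcript.

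Among 32 lymphocyte miRNA genes, 2 had a near peak (6.25%, 0.766 to 20.8) and 6 a peak at any distance (18.8%, 7.21 to 36.4). The corresponding shares over all miRNA genes were 1.63% and 5.21%. The distance is measured to the hairpin, which lies within a longer primary transcript, so a distal miRNA peak can still be close to where transcription of the hairpin begins. Mir142, a blood-cell miRNA gene, had a 214 bp peak 1846 bp upstream and a 660 bp peak 7405 bp upstream. Mir17, first of the miR-17-92 cluster of growth-promoting miRNAs, had a 307 bp peak 1234 bp upstream. Mir23a, at the head of a cluster with Mir27a and Mir24-2, had 4 peaks of 421, 237, 1243 and 226 bp at 9938, 7559, 6339 and 5017 bp upstream. These 4 peaks span 5245 bp.

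Mir21a, a miRNA gene active in many stimulated cells, had peaks of 312 and 394 bp at 9097 and 40241 bp upstream, both within introns of Vmp1, which encodes an ER membrane protein of autophagy. Mir29b-1, whose family limits interferon-gamma in mouse lymphocytes, had an 857 bp peak 18015 bp upstream. Mir15a had a 354 bp peak 16829 bp upstream in an intron of Dleu2. The other 26 listed miRNA genes had none of their own name, and for 9 of these the closest peak is named for another listed miRNA gene, such as Mir17 for Mir20a.

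Over all 75 miRNA peaks, 45 lay upstream of the hairpin, and 37 had a protein-coding gene named in their class, as promoter, exon, intron or end. For 73 of the 75 the miRNA gene was placed on the peak's chromosome in RefSeq, and 5 of these peaks overlapped it. Those 5 belong to Mir1893, Mir8096, Mir8102, Mir8120 and Mir484. Mirlet7i had a peak on each side of its hairpin, 699 bp wide at 712 bp upstream and 297 bp wide at 554 bp downstream. Mir148a had a 471 bp peak 961 bp upstream, and Mir26b had a 331 bp peak 3275 bp downstream, which lies 300 bp from an end of Ctdsp1. The widest miRNA peak, 1310 bp, is named for Mir7683. Its centre lies 2574.5 bp from an end of Slamf7, an NK cell receptor gene, but 12072 bp from the start of the hairpin. The 955 bp peak named for Mir704 lies 531 bp from an end of the small RNA gene Rny1. The Mir704 hairpin sits between the ends of Pdia4, which encodes an ER protein disulfide isomerase.

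Of 13 structural and RNA polymerase III genes, 12 were matched in RefSeq, and none of these 12 had a peak of its own name (upper bound 26.5%). The unmatched entry is Rn45s, with the 361 bp near peak described above. Peaks of other names were centred within 1000 bp of Rpph1 (Parp2, 202 bp), Rnu12 (Poldip3, 270 bp), Rny1 (Mir704, 531 bp) and Rn7s1 (Rps29, 611 bp).

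Of the 199 near noncoding peaks, 87 (43.7%, 36.7 to 50.9) had a start or end of a protein-coding gene within 1000 bp of the centre. For near protein-coding peaks, the share with an end of another protein-coding gene within that distance was 20.6% (19.3 to 21.9). In 42 noncoding peaks (21.1%, 15.7 to 27.4) such an end lay inside the peak, against 9.49% (8.57 to 10.5) of protein-coding ones. Of the 87, the coding end was closer than the noncoding TSS in 9, farther by at most 100 bp in 30, and farther by more in 48. So the coding end was closer, or farther by 100 bp or less, in 39 of the 87. The median difference in distance was 124 bp. These ends include starts and transcript ends, which were not separated, and only a start competes for the name. The peaks of Neat1 by Frmd8 and of Mir26b by Ctdsp1, for example, have the class of a transcript end. Which gene such a peak acts on cannot be told apart from position.

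Strand was known for 129 near peaks with a start in the promoter table. Of these, 54 had a protein-coding start within 1000 bp of the noncoding gene's start, not of the peak centre. It was divergent in 37, overlapping on the opposite strand in 15 and on the same strand in 2. The divergent starts lay a median of 177 bp apart. These counts and the median are per peak, so genes with several peaks, such as 4930526I15Rik and 1700012D01Rik, enter more than once. The arrangement was not counted over all noncoding genes or for protein-coding peaks. Whether the divergent share is particular to these peaks was therefore not tested. Among the 12 widest peaks with a coding end inside, those not yet named were 1700008J07Rik with the chromatin remodeller gene Srcap (1100 bp), Gm45914 with Swsap1 (1065 bp), C130046K22Rik with Gosr2 (1054 bp), 1700084E18Rik with Lrrc8a (851 bp), Thap6 with Rchy1 (773 bp) and E130307A14Rik with Rev3l (734 bp). Gosr2 encodes a SNARE of ER to Golgi transport, and its start lies 1 bp from that of C130046K22Rik. Further neighbours that encode ER proteins, chosen after the values were seen, were Man1b1 (with AA543186, 395 bp), an ER mannosidase gene, and Fitm2 (with 2310001K24Rik, 228 bp), an ER lipid gene. How many of the 42 peaks with a coding end inside stand by such genes was not counted, and most neighbours named here have other roles.

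**Figure D4:**
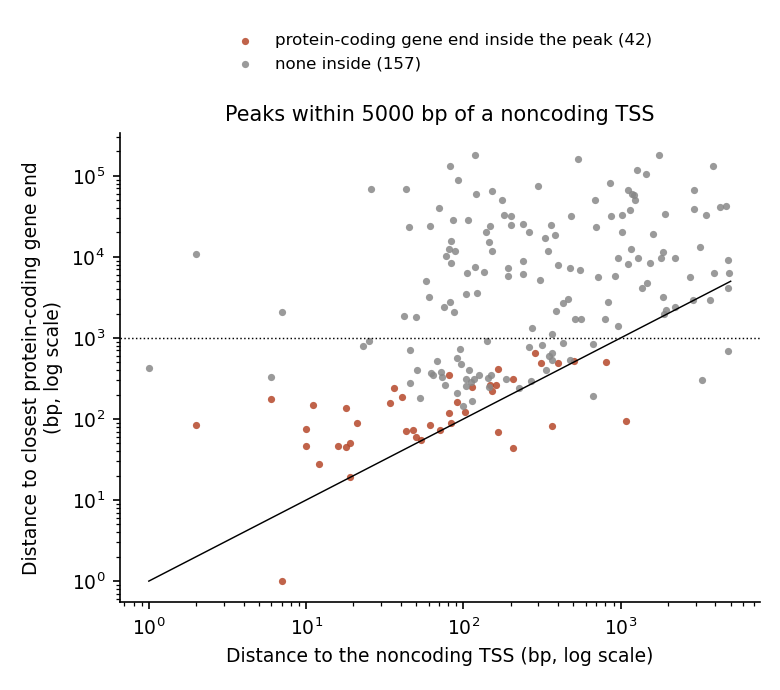
Each point is a near noncoding peak, placed by the distance in bp from its centre to its noncoding TSS (x) and to the closest protein-coding gene end (y), both on log scales with values under 1 drawn at 1. Points below the diagonal are closer to the coding end, the dotted line marks 1000 bp, and the 42 red points have a coding end inside the peak.

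The motif letters were compared over 104 windows under noncoding peaks, 2726 under protein-coding peaks and all 32851 windows. Each motif was searched on both strands. The letters GACGTG are part of the UPRE core. The E-box (CACGTG) and the CRE (TGACGTCA) read the same on both strands. CCACG is part of the UPRE core read on the other strand. The UPRE core was in 3.85% (1.06 to 9.56) of noncoding, 2.2% of protein-coding and 0.676% of all windows. GACGTG was in 18.3% of noncoding, 15.7% of protein-coding and 6.38% of all windows. The CRE was in 4.81% of noncoding, 5.61% of protein-coding and 1.79% of all windows. The E-box was in 19.2% of noncoding, 14.4% of protein-coding and 7.15% of all windows. CCACG was in 54.8% of noncoding, 58.6% of protein-coding and 32.8% of all windows. The elements ERSE and ERSE-II were in none of the 104 noncoding windows (upper bound 3.48%), against 0.367% and 0.257% of protein-coding windows. For the 5 motifs found, the noncoding intervals include the protein-coding values. The median GC content was 62.3% in noncoding and 62.3% in protein-coding windows, against 52.7% in all, and the median observed over expected CpG ratio was 0.847 in noncoding and 0.853 in protein-coding windows, against 0.384 in all. The part of base content in the motif shares was not tested.

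Distal noncoding peaks lay a median of 22868 bp from their TSS. Of the 165, 34 were within 10000 bp, 48 beyond 50000 bp and 19 beyond 100000 bp. The closest protein-coding end was nearer than the noncoding TSS in 53. As for near peaks, starts and transcript ends were not separated here, and only a start competes for the name. Just inside the limit of 5000 bp lay peaks of Mir7231 (4859 bp), A930015D03Rik (4844 bp) and Neat1 (4801 bp), and just outside it Mir23a (5017 bp), Btbd19 (5070 bp) and 2310001H17Rik (5108 bp). By class, 62.4% of distal noncoding peaks were intergenic and 32.7% intronic, against 54.9% intergenic and 40.5% intronic among distal protein-coding ones. Of 54 intronic peaks, 43 lay in an intron of a protein-coding gene. Bcl2, the survival gene, held 3 of them, of 445, 322 and 317 bp, all named for Mir3473f. Their centres lie 54555 to 66348 bp from the start of its hairpin. Itpkb, Rptor, Vmp1, Rai1 and Dnmt3a held 2 each.

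The widest distal peaks were Gm5535 (1774 bp wide, 23478 bp from the TSS), 4930578M01Rik (1453 bp, 6960 bp), Mir7683 (1310 bp), 5031425F14Rik (1294 bp, 47533 bp upstream), Mir23a (1243 bp) and Gm15441 (1069 bp, 10185 bp upstream). The Gm15441 peak lies 886 bp from an end of Polr3gl, a subunit gene of RNA polymerase III.

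Most of the 290 genes (244) had 1 peak, and 16 had at least 3. Gm17746 had 6, all distal and intergenic, between 61550 and 309570 bp downstream of its TSS and 144 to 1020 bp wide. The closest protein-coding gene to each is Id2, a regulator needed for NK cell development, at 94632.5 to 342652 bp. Gm12596 also had 6, of which 4 lie within its introns, 1 lies upstream and 1 in the last intron of Susd1. 5031425F14Rik had 5 over 92912 bp, and A630001O12Rik had 5 over 144483 bp. 1810026B05Rik, named Chaserr in RefSeq and known to limit expression of the neighbouring chromatin remodeller gene Chd2 in mice, had a 655 bp peak 329 bp upstream and 3 distal ones up to 60945 bp upstream. Of the genes with 3, 5031425E22Rik and Neat1 had the largest summed widths.

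**Figure D5:**
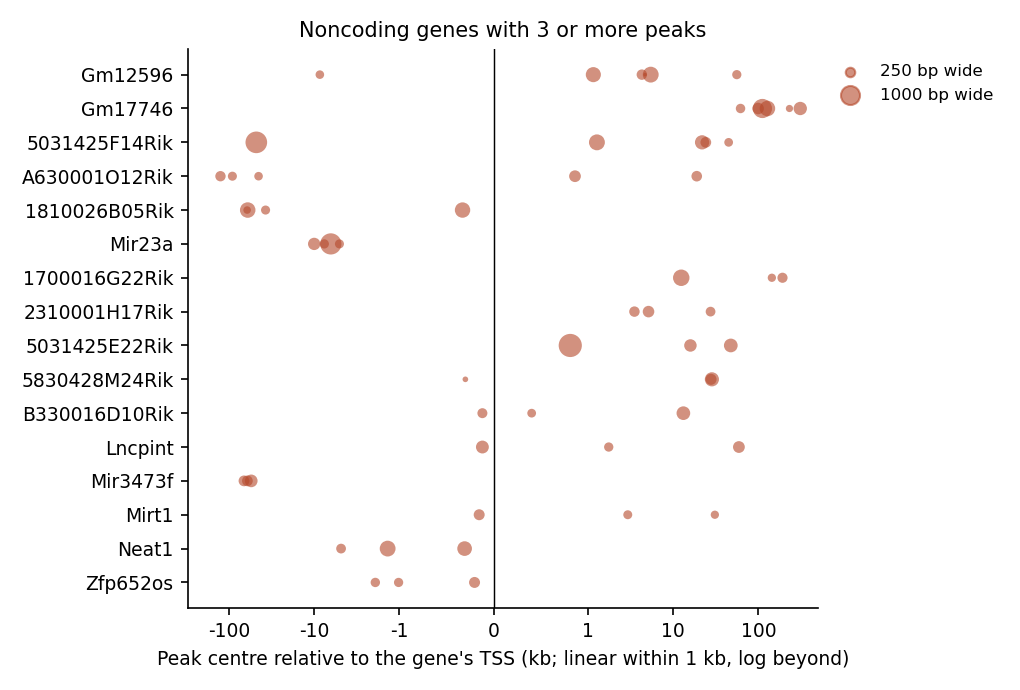
Peaks of the 16 noncoding genes with at least 3 peaks, placed by the distance in kb of the peak centre from the gene's TSS (linear within 1 kb, log beyond), with circle area proportional to width. Gm17746 and Mir3473f have all their peaks on 1 side of the TSS and beyond 50000 bp.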

How the data were processed

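XBP1s peaks of mouse splenic NK cells were taken from the annotated list that the authors deposited. Per the file header it is output of the HOMER annotator on 1 set of intervals with build mm10. Per the submitters' processing notes, the tools were MACS2 (version 2.2.7.1), HOMER (4.11 and 4.11.1), Bowtie2 (2.4.5), FastQC (0.11.9) and Trim Galore (0.6.7), and the builds mm10 and GRCm38. The merging of calls and its threshold are not given in the sources used here. Since the deposited score is 0 in all rows, width (end minus start plus 1) was used to rank. Distances, names and classes are the authors'. The protocol also names T-bet and IgG precipitations, which were not analysed here.

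Genes were matched by Entrez number to RefSeq (GRCm38.p6); 363 of 364 peaks matched, 9 under another symbol. That table has no strand, so either end of a gene was used. Promoter windows and miRNAs came from RefSeq tables that do not hold every gene. Medians have exact binomial order-statistic 95% intervals. No test was run, as the 2 immunoprecipitations and 2 inputs have no values of their own. The counting code was tested on simulated data. Genes named are those of the 12 widest near and 6 widest distal peaks, small RNA genes, members of the 5 lists, genes with at least 3 peaks (at most 8), and the 12 widest near peaks with a coding end inside; other names were chosen after their values were seen. Members and lists were chosen with earlier results of these data known. Alternatives varied the near distance, the coding-end distance, the width minimum, the gene type source and 1 peak per gene. The tools were Python (3.11.15) with matplotlib (3.10.9), SciPy (1.17.1), NumPy (2.4.6) and pandas (2.3.3).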

Additional observations from a re-analysis of the deposited data

How the results depend on the processing

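Of 33 values recomputed under alternatives, 25 stayed within the interval or margin of the reported value and 8 moved. Keeping the widest 50% of peaks gave median widths of 623 bp near and 555 bp distal and 103 near peaks, by construction of that subset. The near share was 43.1% with near set at 1000 bp and 64.0% with it at 10000 bp. The share of near peaks with a coding end was 21.1% when the end had to lie inside the peak, 34.2% within 500 bp and 53.5% when near was set at 1000 bp. Using 1 peak per gene, RefSeq gene types or intervals of at least 200 bp moved none of the 5 measures (both median widths, the near count and share, and the coding-end share). No paired analysis was possible because the list holds no values per library, and for the same reason no replicate could be left out and depth sets no known limit. The intervals may be overlaps of calls, which would shorten them, and their origin was not stated in the sources used here. Each peak has 1 gene name, chosen by distance from a start.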

Other observations

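Pseudogenes are a small further group with 20 peaks. Of the 13 near ones, Gm6793 (2508 bp, described above with Hnrnpa3), Gm15760 (725 bp), Gm2518 (700 bp), Thap6 (773 bp), Gm9855 (488 bp) and Gm15772 (245 bp) have a protein-coding end inside the peak, in the others of Abcf3, Tmem179b with Taf6l, Rchy1, Tdg and the ribosomal protein gene Rpl26. Gm6637 has near peaks of 1063 and 230 bp, each with a retroviral repeat label, and the closest protein-coding gene is Klrg1, an inhibitory receptor of mature NK cells, whose end lies 9563 bp from the wider peak. The distal pseudogene H2afy3 has a 263 bp peak within an intron of the lncRNA gene Pvt1, with the closest protein-coding gene being Myc at 179611 bp. Reads in pseudogenes can be shared with their parent genes, and no mapping filter was given in the sources used here. These genes were chosen after their values were seen.

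Chromosome 11 holds the most noncoding peaks, 38 of 364 (10.4%), and also 9.53% of the protein-coding ones. Chromosome 6 holds 7.42% of noncoding and 4.84% of protein-coding peaks, and chromosome 7 holds 6.04% of noncoding and 8.18% of protein-coding peaks.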
